A study of Homo sapiens with 4 samples.

Results

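Gangliosides are glycosphingolipids that carry sialic acid, and the 9 genes described here encode enzymes and cofactors that build or degrade them. They are UGCG, ST3GAL5, ST8SIA1 and B4GALNT1 for synthesis and GLB1, HEXA, GM2A, NEU1 and PSAP for breakdown in the lysosome. They were taken by gene name from the 17755 genes listed in the expression table, and all 9 are listed. Apart from GM2A, the members stand on the list for their biochemical roles. The list was, however, drawn up with earlier results of these data known. GM2A was picked for its lower RNA level in siLINC00622-treated cells. The change of GM2A with siLINC00622 is therefore given below as a description and without a test.

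RNA-Seq was performed on A375 and SK-MEL-28, which are established human melanoma cell lines. Each line was treated with a control siRNA (siNC) or with siRNA against the long noncoding RNA LINC00622 (siLINC00622). The cells stayed 6 h in medium without serum after transfection and then 24 h in medium with serum, so all 4 libraries share this handling. There was 1 library per line and treatment, and the sources do not say which of the 2 listed siRNAs was used. The libraries held between 31269923 and 36384819 counted reads. Below, the siNC library of a line is called its control library and the siLINC00622 library its knockdown library. LINC00622 itself was counted 309 times in the control and 135 times in the knockdown library of SK-MEL-28, and 135 and 86 times in those of A375. The melanocyte lineage factor SOX10 was present in every library, at an FPKM between 118 and 153. The pigment cell genes PMEL, MLANA, TYR and DCT, by contrast, had FPKM values from 104 to 1134 in SK-MEL-28 and from 0.21 to 2.35 in A375. TYRP1, another pigment gene, stayed below an FPKM of 1 in all 4 libraries. The leukocyte and endothelial markers looked for are not listed. Of 4 keratinocyte markers, KRT10 had an FPKM of 19.0 to 26.3, and KRT14 had 7.01 and 6.14 in A375 and below 0.1 in SK-MEL-28. Of 4 fibroblast markers LUM is listed, with an FPKM of 2.24 to 9.78.

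As background, ceramide is first glucosylated by UGCG, galactosylated to lactosylceramide, and then sialylated by ST3GAL5 to GM3. ST8SIA1 adds a further sialic acid to GM3 to make GD3, while B4GALNT1 adds N-acetylgalactosamine to GM3 or GD3 to make GM2 or GD2. These gangliosides are known as surface antigens of melanoma and other tumors of neural crest origin. In the lysosome the sugars are removed in turn by GLB1, by the hexosaminidase subunit HEXA and by NEU1. GM2A lifts GM2 out of the membrane for hexosaminidase A, and PSAP is the precursor of the saposins, which serve later steps.

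The target sequences listed for the siRNAs against LINC00622 are shown because the RNA of GM2A was lower in both siLINC00622 libraries. Capitals mark the stretch that pairs with bases 2 to 8, the seed, of the guide strand.
siLINC00622_1: ccctaaagaaaGTGAGAAa
siLINC00622_2: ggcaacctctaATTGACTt
Among the 9 genes, the longest annotated 3′ UTR of GM2A and that of ST8SIA1 hold a match to these seeds, in GENCODE 29 transcripts on GRCh38. The stretch around each match follows, with the match in capitals.
GM2A, siLINC00622_1 match: tgataagaaccGTGAGAAacatgttgctt
ST8SIA1, siLINC00622_1 match: tatggctggcaGTGAGAAggttcggtaag
ST8SIA1, siLINC00622_2 first match: gtggttgaaatATTGACTttgtgaaattt
ST8SIA1, siLINC00622_2 second match: ccatattttaaATTGACTtacatgcctgc
The GM2A match lies at bases 669 to 675 of a 3′ UTR of 2989 bases. It extends to 8 bases, since the base after the capitals pairs with the first base of the guide. A match of 7 bases to siLINC00622_1 occurred in 14.6% of the 12367 3′ UTRs examined and a match of 8 bases in 5.82%. Both ST8SIA1 matches to siLINC00622_2 also extend to 8 bases, while its match to siLINC00622_1 does not. For siLINC00622_2 a match of 7 bases occurred in 11.6% and a match of 8 bases in 4.88%. The 3′ UTR of GM2A is longer than or as long as 77.9% of them, and that of ST8SIA1, with 8161 bases, than 97.9%. The RNA of ST8SIA1 was not lower in the siLINC00622 library of either line, as given below. A match is a feature of the letters, and whether a guide strand acted there was not tested.

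The level of GM2A (ENSG00000196743) was the most changed of the 9 in SK-MEL-28. In GENCODE 29 (GRCh38) the gene spans bases 151212150 to 151270440 of chromosome 5, plus strand. The control library of SK-MEL-28 held 4330 reads of GM2A and the knockdown library 1781. After scaling by the TMM method of edgeR, the log2 ratio of siLINC00622 over siNC was -1.31, a level 2.48-fold lower. Its 95% Clopper-Pearson interval was -1.39 to -1.23, which covers counting error only, as do all such intervals below. For A375 the libraries held 1179 and 799 reads of GM2A, which gives -0.77 on the log2 scale (interval -0.90 to -0.64), a level 1.70-fold lower. The GM2A level was thus lower with siLINC00622 in both lines, and the siNC library of SK-MEL-28 stood highest of the 4. The counting intervals of the 2 lines did not overlap, but with 1 library per condition neither the change nor its difference between lines has a replicate check.

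Ranked by size, GM2A took place 107 from the bottom among 15442 genes of SK-MEL-28 and place 328 from the bottom among 16021 genes of A375. Ranking took the genes that reached 10 counts in either library of a line. Of these, 6.49% changed more than 1.5-fold downward in SK-MEL-28, against 4.34% for A375. More than 1.5-fold upward, the shares were 4.56% and 4.52%. Since GM2A was chosen by this measure, nothing is read from its place. Over all genes the median log2 ratio was -0.004 for SK-MEL-28 and 0.004 for A375. In the same libraries RRAGD, the Rag GTPase gene on which the study centers, had log2 ratios of -2.21 and -1.34. The RNA came from whole cultures, so fewer cells with GM2A RNA and less GM2A RNA per cell cannot be told apart.

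**Figure D1:**
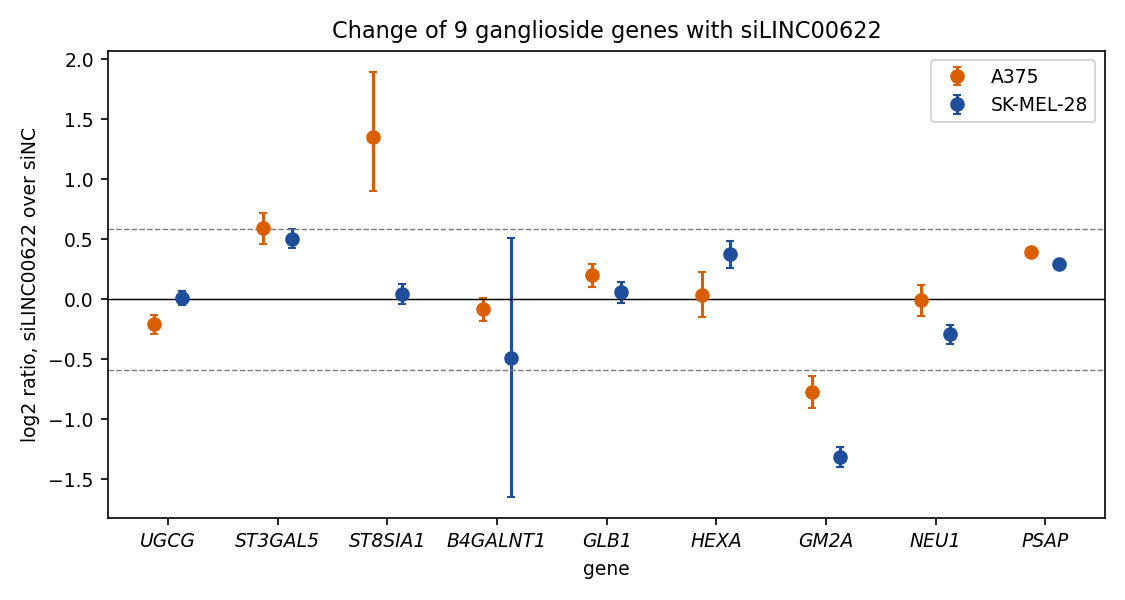
Log2 ratio of siLINC00622 over siNC for the 9 genes in A375 (orange) and SK-MEL-28 (blue), 1 library per condition, with bars for the 95% counting interval and dashed lines at 1.5-fold. GM2A lies below the lower line in both cell lines, and ST8SIA1 lies above the upper line in A375 with a wide interval.

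Of the partners of GM2A in the lysosome, NEU1 in SK-MEL-28 was lower with its counting interval away from 0, and PSAP was higher in both lines. HEXA (ENSG00000213614) encodes the alpha subunit of hexosaminidase A, the enzyme that GM2A serves. In SK-MEL-28 it was counted 1087 times in the control and 1440 times in the knockdown library, with a ratio of 0.37 (log2, interval 0.26 to 0.49). For A375 the counts were 435 and 517 and the ratio 0.04 (log2, interval -0.15 to 0.23). HEXA was thus somewhat higher in SK-MEL-28, and in A375 a change was not detectable at this depth.

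PSAP (ENSG00000197746), the saposin precursor, was the most abundant of the 9 transcripts. SK-MEL-28 had 51948 control and 64939 knockdown counts, and A375 had 15833 and 24022. The log2 ratios were 0.29 (interval 0.27 to 0.31) and 0.39 (interval 0.36 to 0.42). PSAP was therefore higher with siLINC00622 in both lines, by less than 1.5-fold.

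GLB1 (ENSG00000170266), the lysosomal beta-galactosidase, had 2127 control and 2262 knockdown counts in SK-MEL-28, and A375 had 1573 and 2090. Its log2 ratios were 0.06 (interval -0.03 to 0.14) and 0.20 (interval 0.11 to 0.30). NEU1 (ENSG00000204386), the lysosomal sialidase, had 2716 control and 2268 knockdown counts in SK-MEL-28, with a ratio of -0.29 (log2, interval -0.37 to -0.21). The A375 counts were 913 and 1051, and the ratio was -0.01 (log2, interval -0.14 to 0.12). None of HEXA, PSAP, GLB1 and NEU1 passed 1.5-fold in either line. In GENCODE 29, exons of HEXA overlap 3 other genes and exons of GLB1 overlap TMPPE and 2 pseudogenes. Reads in the shared stretches are uncertain, and their number was not counted.

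Because GM2A and HEXA products act on the same substrate, their levels per length were also set side by side. FPKM, which the authors scaled to gene length and library size, was 31.2 for GM2A and 2.07 for HEXA in the SK-MEL-28 control library, and 12.5 and 2.65 after knockdown. The A375 control library had 9.01 and 0.875, and the knockdown library 5.25 and 0.894. The ratio of GM2A to HEXA in FPKM thus went from 15.1 to 4.70 for SK-MEL-28 and from 10.3 to 5.87 for A375. The size of this ratio depended on the gene model. The FPKM of HEXA implies a length of 15893 bases, against 5252 bases for its principal transcript in GENCODE 29. Scaled to principal transcripts, a choice made after seeing the data, the ratio was 5.37 and 1.67 for SK-MEL-28 and 3.65 and 2.08 for A375. The length sets the size of the ratio alike in both libraries of a line, so it cannot change the direction, which follows GM2A.

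The synthetic enzymes were less uniform. ST3GAL5 (ENSG00000115525), the GM3 synthase, had 2187 control and 3169 knockdown counts in SK-MEL-28, with a ratio of 0.50 (log2, interval 0.42 to 0.58). The A375 counts were 758 and 1321, and the ratio was 0.59 (log2, interval 0.46 to 0.72). ST3GAL5 was thus higher with siLINC00622 in both lines, and in A375 it stood just past 1.5-fold. There, scaling by library totals gave 0.58 and FPKM with a pseudocount of 1 gave 0.38, both under 1.5-fold.

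ST8SIA1 (ENSG00000111728), the GD3 synthase, had 47 control and 142 knockdown counts in A375, with a ratio of 1.35 (log2, interval 0.90 to 1.89). This was the 49th highest of the 16021 ratios of that line. SK-MEL-28 had 2472 and 2604 counts, and the ratio was 0.04 (interval -0.04 to 0.12). The A375 ratio thus rests on few counts, and with FPKM and a pseudocount of 1 it was 0.20. Even with siLINC00622, the ST8SIA1 level in A375, at an FPKM of 0.269, stayed far below the 5.15 and 5.26 of SK-MEL-28.

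B4GALNT1 (ENSG00000135454), the GM2 and GD2 synthase, had 1759 control and 1919 knockdown counts in A375, with a ratio of -0.08 (log2, interval -0.18 to 0.01). SK-MEL-28 had 20 and 14 counts, so a change was not detectable at this depth (log2 ratio -0.49, interval -1.64 to 0.51). UGCG (ENSG00000148154), which makes glucosylceramide, had 4287 and 4417 counts in the SK-MEL-28 libraries, and A375 had 2770 and 2771. Its log2 ratios were 0.01 (interval -0.05 to 0.07) and -0.21 (interval -0.29 to -0.13).

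**Figure D2:**
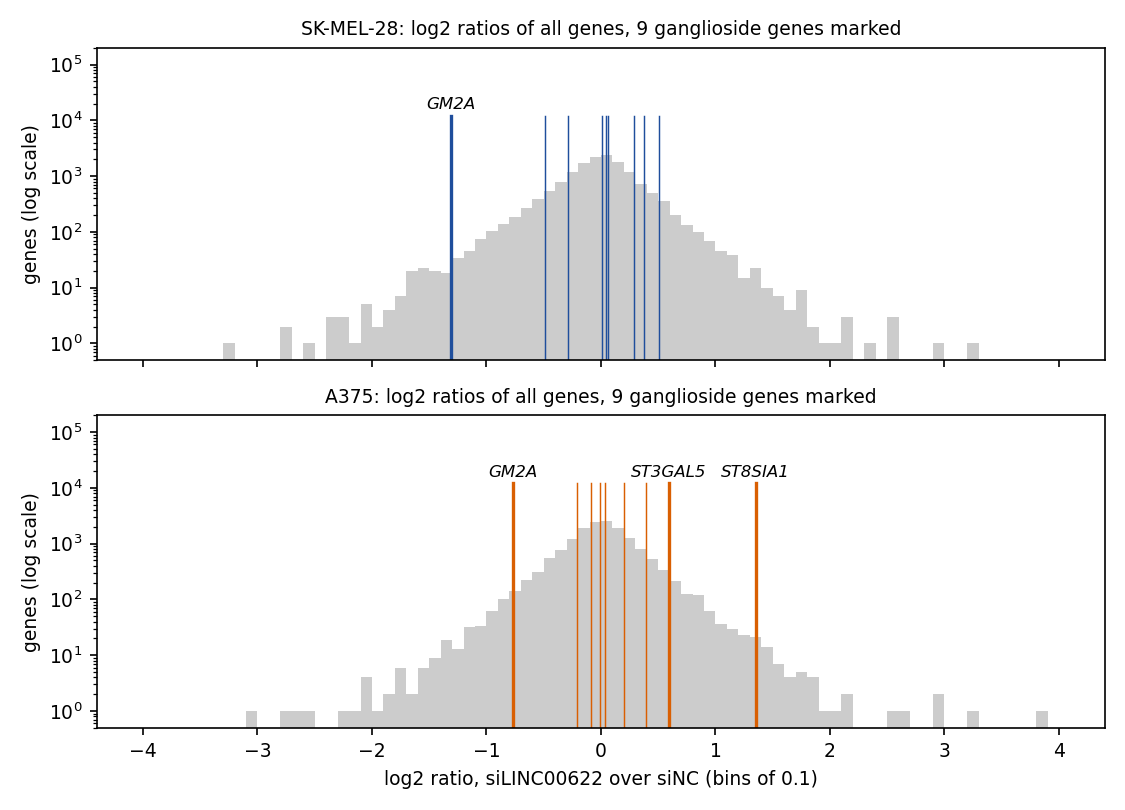
Number of genes (log scale) by log2 ratio of siLINC00622 over siNC in bins of 0.1, for genes that reached 10 counts in either library of a line. Colored lines mark the 9 ganglioside genes, and those past 1.5-fold are named, which are GM2A in SK-MEL-28 and GM2A, ST3GAL5 and ST8SIA1 in A375.

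Counting both directions, 1 of the 9 genes passed 1.5-fold in SK-MEL-28, where 11.0% of all genes did, and 3 of the 9 in A375, where 8.86% did. GM2A, picked for its fall, was the only 1 in SK-MEL-28 and is among the 3 in A375, so nothing is read from these counts. The median log2 ratio of the 9 genes was 0.04 in each line. To ask whether a change was shared by the lines, siLINC00622 was compared with siNC over all 4 libraries in an edgeR quasi-likelihood fit with the cell line as a term. In this fit, in which the lines stand in for replicates, 46 of 16310 genes (0.282%) were called at a Benjamini-Hochberg adjusted p below 0.05. Of these, 19 were higher and 27 lower, whereas the same fit with DESeq2 size factors called 1 gene, which was higher. GM2A was left out of this test. Of the other 8 genes, 0 were called by edgeR, and 2 had an unadjusted p below 0.05, as did 14.6% of all genes. ST3GAL5 had a log2 difference of 0.56 (SE 0.10), higher in 2 of 2 lines, with an edgeR adjusted p of 0.093. PSAP had 0.35 (SE 0.08), also higher in 2 of 2 lines, with an edgeR adjusted p of 0.12. The Wald test of DESeq2, which called 1.93% of all genes, called both, with adjusted p of 0.015 for ST3GAL5 and 0.016 for PSAP. Limma on log2 FPKM called 0 of the 8, but of all 16310 genes it called only 1 (pseudocount of 1) or 0 (pseudocount of 0.1).

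The clearest contrast among the 9 genes lay between the cell lines, in the 2 branch enzymes that act on GM3. The FPKM of B4GALNT1 was 7.13 in the control and 6.69 in the knockdown library of A375, but 0.077 and 0.052 in those of SK-MEL-28. The FPKM of ST8SIA1 was 0.104 and 0.269 for A375, but 5.15 and 5.26 for SK-MEL-28. Each line thus had appreciable RNA for 1 of these enzymes and little for the other. The FPKM of B4GALNT1 was 68.7 and 24.8 times that of ST8SIA1 in the A375 libraries, whereas in SK-MEL-28 the FPKM of ST8SIA1 was 67.3 and 101 times that of B4GALNT1, with siNC first. Scaled to principal transcripts, the same ratios were 120 and 43.2 in A375 and 38.6 and 58.1 in SK-MEL-28.

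The lines were compared in the same edgeR fit, with treatment as a term. Its spread is the part of the treatment change that differed between the lines, with information shared across genes. The SE and p values below therefore do not measure a spread between replicate cultures, which this design does not hold. Of all genes 68.8% were called between the lines (33.8% with more RNA in SK-MEL-28 and 35.0% with less), so a call alone says little. For B4GALNT1 the log2 difference of SK-MEL-28 over A375 was -6.58 (SE 0.17, edgeR adjusted p of 5.8e-07), the 351st lowest of 16310 genes. For ST8SIA1 it was 5.00 (SE 0.29, edgeR adjusted p of 1.2e-05), the 421st highest. Without the siLINC00622 library of A375 and without a treatment term it was 5.83, and without the siNC library of A375 it was 4.42. A call with a log2 difference over 2 was made for 18.9% of all genes, 8.05% higher and 10.8% lower. Among the 9 genes it was made for these 2 alone. In GENCODE 29, B4GALNT1 shares 2136 exonic bases with SLC26A10 on the opposite strand. The library kit named in the methods does not mark strand, so reads of the 2 genes cannot be told apart there.

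**Figure D3:**
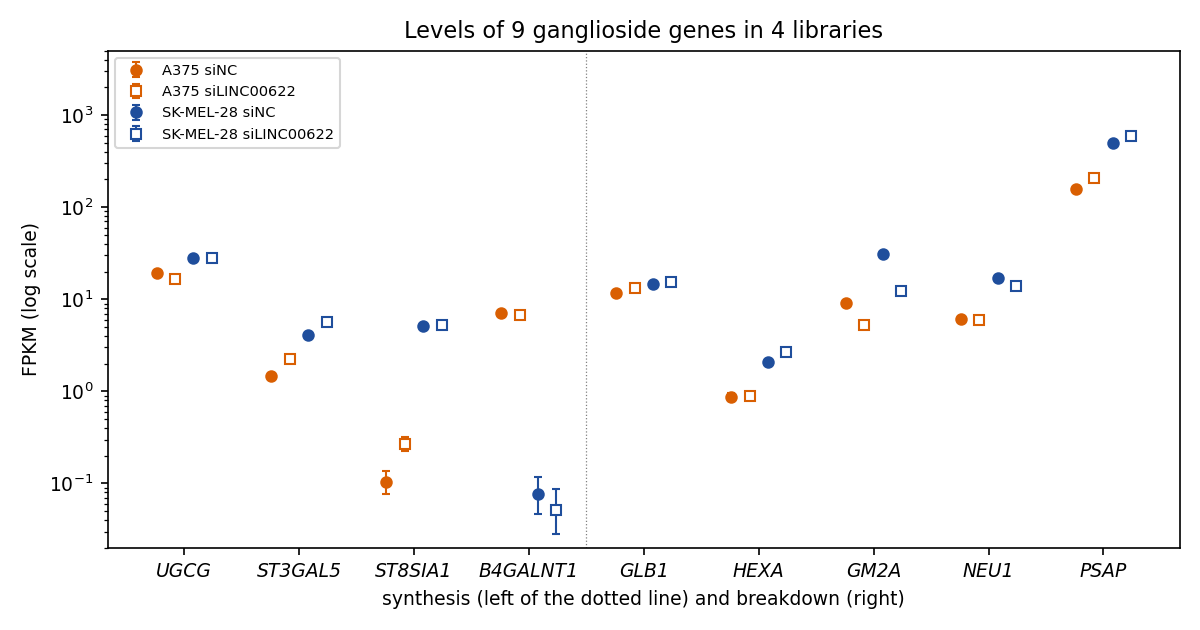
FPKM (log scale) of the 9 genes in the 4 libraries, with synthesis left and breakdown right of the dotted line. Filled circles are siNC, open squares siLINC00622, and bars the exact Poisson interval of the count. B4GALNT1 is high in A375 and ST8SIA1 high in SK-MEL-28, with a reversed order in the other line.

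The other 7 genes were all higher in SK-MEL-28, and their RNA was present in both lines. The log2 difference was 1.75 (SE 0.08) for PSAP, 1.69 (SE 0.15) for GM2A, 1.57 (SE 0.12) for HEXA, 1.56 (SE 0.10) for ST3GAL5 and 1.51 (SE 0.11) for NEU1. It was smaller for UGCG, at 0.82 (SE 0.10), and for GLB1, at 0.44 (SE 0.10). The edgeR adjusted p of these 7 lay between 4.0e-06 for PSAP and 0.0060 for GLB1. For GM2A the lines did not overlap, since the SK-MEL-28 knockdown library, at an FPKM of 12.5, was above both A375 libraries. Without the siLINC00622 library of A375 and without a treatment term, GM2A was no longer called (log2 difference 1.46, edgeR adjusted p of 0.079), and its difference was 0.99 without the siNC library of SK-MEL-28 and 2.28 without the siLINC00622 library of that line. GLB1 was not called without the siNC library of A375 (0.34, edgeR adjusted p of 0.14) or without the siLINC00622 library of SK-MEL-28 (0.40, edgeR adjusted p of 0.055). Most melanocyte markers differed between the lines as well. All 8 looked for are listed, with a summed FPKM of 133 and 166 in A375, most of it SOX10, and of 2061 and 2210 in SK-MEL-28. SOX10 itself was at 118 and 149 in A375 and at 153 and 150 in SK-MEL-28. MITF, a factor that drives pigment genes, had an FPKM of 80.1 and 74.9 in SK-MEL-28 and of 5.29 and 4.95 in A375. The part of the markers in the difference of the ganglioside genes was not tested.

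Within a library, PSAP had the highest FPKM of the 9 genes, from 159 to 596. The lowest was ST8SIA1 in both A375 libraries and B4GALNT1 in both SK-MEL-28 libraries. GM2A ranked second of the 9 in SK-MEL-28 with siNC but fell to the fifth place with siLINC00622, and in A375 it went from the fourth to the sixth. The counting intervals of neighbors in this order were apart in every library, but other gene lengths change it, so it is a description of the deposited FPKM.

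The wider pathway was described with lists of genes that are written out from general knowledge. Of 64 names, 51 are listed genes of the table. In SK-MEL-28, of 49 with at least 10 counts, 0 were more than 1.5-fold higher and 4 lower with siLINC00622. Among all genes of that line the shares were 4.56% higher and 6.49% lower. In A375, of 51, 3 were higher and 1 lower, beside 4.52% and 4.34% of all genes. GM2A, picked for its fall, is among the 4 and is the only lower gene of A375. Nothing is therefore read from the counts of lower genes. The median log2 ratio of the pathway genes was 0.01 and 0.05, with SK-MEL-28 first. In the fit across both lines, 0 of the 50 genes other than GM2A were called by edgeR, beside 0.282% of all genes. Of them 8 had an unadjusted p below 0.05, beside 14.6% of all genes. Limma called 0 of these 50, and of all genes it called only 1 (pseudocount of 1) or 0 (pseudocount of 0.1). DESeq2 called 3, which were ASAH1, PSAP and ST3GAL5, beside 1.93% of all genes.

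The breakdown genes mostly had small ratios above 0. Of 14 listed breakdown genes, all but GALC had at least 10 counts in SK-MEL-28. There, 10 of the 13 had a log2 ratio above 0, beside 7641 of all 15442 genes. In A375 it was 10 of the 14, beside 8116 of all 16021 genes. GM2A was the only member of this list past 1.5-fold in either line, and it was lower. The medians were 0.10 and 0.18, beside -0.004 and 0.004 over all genes.

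Outside the breakdown list, the genes past 1.5-fold with at least 50 counts were few. SGMS2, a sphingomyelin synthase that draws on ceramide, had 933 and 591 counts in SK-MEL-28, with a ratio of -0.69 (log2, interval -0.84 to -0.54). Its A375 counts were 271 and 221, with a ratio of -0.50 (log2, interval -0.77 to -0.24). B4GALT6, a lactosylceramide synthase, had 1953 and 1328 counts in SK-MEL-28, with a ratio of -0.59 (log2, interval -0.69 to -0.49). It stood just past 1.5-fold there, and its log2 ratio in A375 was 0.06. A4GALT, which starts the globo branch, had 63 and 39 counts in SK-MEL-28, with a ratio of -0.69 (log2, interval -1.34 to -0.12), and a ratio of 0.11 in A375. CERS4, a ceramide synthase, had 43 and 101 counts in A375, with a ratio of 0.99 (log2, interval 0.49 to 1.57), and a ratio of 0.13 in SK-MEL-28. The genes of sialic acid and sugar nucleotide supply had 0 members past 1.5-fold in either line.

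**Figure D4:**
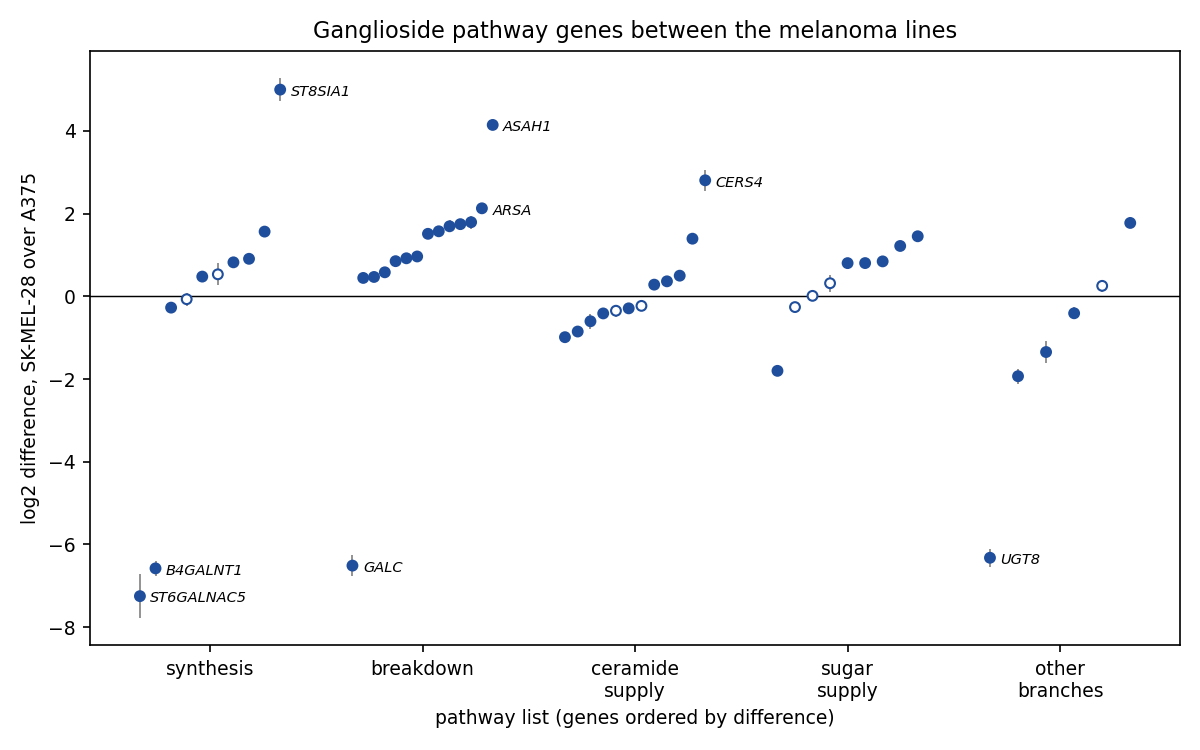
Log2 difference of SK-MEL-28 over A375 for 51 listed genes in 5 pathway lists, with bars for the SE derived from the edgeR fit over 4 libraries. Filled points were called at an adjusted p below 0.05, open points were not, and genes with a difference over 2 are named.

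Between the lines, 43 of the 51 genes were called, 29 higher and 14 lower in SK-MEL-28, beside 68.8% of all genes. The breakdown list was the most one-sided, with 13 of 14 called higher in SK-MEL-28, beside 33.8% of all genes. Its median was 1.24, beside -0.04 over all genes. This list includes GM2A and was chosen with earlier results of these data known. ASAH1, the acid ceramidase at the end of the path, had 18306 and 22655 counts in SK-MEL-28 against 1049 and 1600 in A375, a log2 difference of 4.14. ARSA, the arylsulfatase that acts on sulfatide, had a log2 difference of 2.13. The exception in the breakdown list was GALC, the galactosylceramidase, with 5 and 6 counts in SK-MEL-28 against 497 and 663 in A375, a log2 difference of -6.51. UGT8, which makes galactosylceramide, the substrate of GALC, differed in the same direction, with 15 and 10 counts in SK-MEL-28 against 1014 and 1270 in A375 (-6.32). ST6GALNAC5, a sialyltransferase of complex gangliosides, had 0 and 1 counts in SK-MEL-28 against 106 and 105 in A375. Per library total this is 210-fold higher in A375, with a counting interval of 37.3 to 8326. CERS4 was higher in SK-MEL-28 by a log2 difference of 2.81.

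Promoter sequence was available for 6 of the 9 genes in RefSeq (GRCh38.p14), from 250 bases before to 50 after each start. The E-box core CACGTG, which reads alike on both strands and is bound by MITF and related factors, was found for NEU1 only. It is shown because MITF differed between the lines, with the E-box in capitals and its first base 126 bases before the start site.
NEU1, promoter on the minus strand of chromosome 6: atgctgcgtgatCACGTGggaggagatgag
Of 15534 promoters of listed genes, 9.33% held this word. The promoters of GM2A, GLB1, UGCG, ST8SIA1 and ST3GAL5 do not hold these letters in that window. Also looked for on both strands were CATGTG, held by 7.7% of all these promoters, and GGGCGG, held by 65.0%. CATGTG was not found for any of the 6 genes, and GGGCGG was found for each of them. Whether MITF acts at the NEU1 promoter was not tested.

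To describe which genes had a profile like these, genes were ranked by Euclidean distance in centered log2 CPM over the 4 libraries, among 9812 genes with a mean CPM of at least 10. Nearest to GM2A were PEX10, DTNBP1, ZFP30, TNNT1 and BTG3, at distances from 0.40 to 0.48. Nearest to B4GALNT1 were LAMA5, ARAP3, MAP9, TLR4 and EPHA2, at 0.16 to 0.22, and nearest to ST8SIA1 were CPQ, QPCT, TUBB4A, MOB3B and ATP10B, at 0.51 to 0.61. With 4 libraries such profiles are set mostly by the line. The distance to GM2A also takes in its fall with siLINC00622, for which it was picked, so nothing is read from its neighbors.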

How the data were processed

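Per the study's methods, mRNA was enriched with oligo-dT, made into 4 libraries with a kit that does not mark strand, and sequenced from both ends. The submitters' processing notes name hg19, HISAT2, HISAT, TopHat2 and Bowtie2 without roles, and the counter and annotation are not given in the sources used here. The authors deposited raw counts per gene. The deposited CPM values are counts scaled to the library total, and library totals were recovered from the ratio of count to CPM. The deposited FPKM values divide CPM by a gene length. The deposited TPM values were not used in any result.

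Groups follow the titles in the labels. Within a line, counts were scaled by TMM (edgeR 4.0.16, R 4.3.3), and log2 ratios used a prior count of 2, with 95% Clopper-Pearson intervals. With 1 library per condition there is no test within a line. Across the 4 libraries, edgeR's quasi-likelihood test was fitted with line and treatment as terms, with 1 residual degree of freedom, on genes with at least 10 counts in at least 2 libraries, and adjusted by Benjamini-Hochberg over all of them. The SE is not an output of that test and was taken as the size of the log2 difference divided by the square root of its F statistic. Nothing in the labels says that cultures of a line were separate beyond their treatment. The fits and ratios were tested on simulated data with log2 changes of 1.5 in size planted in 200 genes. The line fit recovered 199 with 8 false calls, and the treatment fit 200 with 13. The ratio in 1 line recovered 199, but 105 other genes with a mean of at least 100 counts also passed 1.5-fold. Apart from planted changes the simulated lines did not differ, unlike the real ones. The simulated dispersion was 0.01, and planted treatment changes were alike in both lines. The simulation therefore does not show how the fits fare with smaller changes or with changes that differ between lines. DESeq2 1.42.0 and limma 3.58.1 served as alternatives, and Python 3.11.15 for other steps.

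Coordinates and lengths are from GENCODE 29 on GRCh38, matched by Ensembl identifier. Intervals cover counting error only, since there is 1 library per condition. Reads carry no molecular identifiers, so copies of the same molecule count as separate reads and the intervals may be too narrow. The members and lists were chosen with earlier results of these data known. Genes named besides the 9 are list members past 1.5-fold that reach 50 counts in either library of that line, or called between lines with a log2 difference over 2, the 5 nearest profiles, and LINC00622 and RRAGD. GLA and GNE, with ratios of opposite sign in the lines, are named outside this rule, as are the genes that a single tool called. MITF, SOX10 and other cell type genes are named as markers, and the latter groups were chosen after their values were seen. Some genes of the lists are counted but not reported by name here.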

Additional observations from a re-analysis of the deposited data

Results flagged for a closer look

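Among the genes of the wider pathway reported by name, 2 had log2 ratios of opposite sign in the 2 lines with counting intervals away from 0 in both, a difference that was not tested. For GLA, the alpha-galactosidase of globosides, the values were 0.53 (SK-MEL-28) and -0.11 (A375). For GNE, which starts sialic acid synthesis, they were -0.14 (SK-MEL-28) and 0.26 (A375). Each value is from 1 library per condition and lies under 1.5-fold.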

How the results depend on the processing

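The GM2A log2 ratio stayed inside its counting interval under each of the 6 alternatives, from -1.33 to -1.26 in SK-MEL-28 and from -0.78 to -0.68 in A375. Genes past 1.5-fold fell from 1706 to 494 in SK-MEL-28 and from 1420 to 302 in A375 with FPKM and a pseudocount of 1, and to 793 and 545 with at least 100 counts. For the treatment across both lines, 46 genes were called with the settings reported, 314 by DESeq2, 121 without a filter on low counts, 1 with DESeq2 size factors, 1 by limma with a pseudocount of 1, 0 by limma with a pseudocount of 0.1 and 0 without the line term. For these alternatives the cause was not tested. Between the lines, 11222 genes were called, with 10154 without the treatment term, and from 8081 to 9789 when a library was left out as well. With FPKM, the median difference of all genes between lines was -0.14 (pseudocount of 1) or -0.19 (0.1), against -0.04. Leaving out each library in turn from the treatment comparison, which also drops the line term and leaves the treatments unbalanced for line, called 0 genes in each of 4 fits. These fits were chosen after seeing the data. Leaving out a library within a line leaves no comparison. No paired analysis by replicate number was possible because the labels carry none, and the treatment fit pairs the libraries by line.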
